A study of Mus musculus with 45 samples.

Results

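The genes that carry bacterial lipopolysaccharide (LPS) to Toll-like receptor 4 (TLR4) and pass on its signal were followed in mononuclear phagocytes sorted from mouse lung. They are Lbp, Cd14, Tlr4, Ly96, Tlr2, Tirap, Myd88, Ticam2, Ticam1 and Irak3, 10 of the 23594 gene rows of the deposited expression table. They were taken by name for their known role, at a point when earlier results of these data were known. All 10 reached 5 TPM (transcript abundance scaled for gene length and library) in 2 or more of the 27 libraries used, and so were among the 8937 genes tested. Libraries were made from small numbers of sorted cells of C57BL/6J mice, namely the macrophages of the alveolar space (AM), those of the lung interstitium (IM) and inflammatory monocytes (IMo). Cells were taken without LPS (0h) or 2, 6 or 20h after LPS was given into the peritoneum (ip). No other genotype or agent is named, and neither the age nor the sex of the mice nor the LPS dose is given in the sources used here. AM had 4, 2, 3 and 2 libraries at 0, 2, 6 and 20h, and IM and IMo had 2 at each time. The labels do not say whether libraries of a group came from separate animals, so p-values measure the spread between these libraries, which may be technical.

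LPS released from Gram-negative bacteria is bound in plasma by LPS-binding protein (Lbp), handed to CD14 on the myeloid cell surface and loaded onto MD-2 (Ly96), which sits on the outer part of TLR4. The receptor pair then signals from the plasma membrane through TIRAP and MyD88 towards NF-κB and inflammatory cytokines, and after uptake from endosomes through TRAM (Ticam2) and TRIF (Ticam1) towards interferon-β. CD14 is also needed for that uptake. TLR2, the receptor of bacterial lipoproteins, uses the same TIRAP and MyD88 branch, and IRAK3 (also called IRAK-M) is a pseudokinase, found mainly in myeloid cells, that restrains MyD88 signalling and is induced during endotoxin tolerance.

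In the mm10 build (GENCODE vM21 annotation) Tlr4 lies at chr4:66827584-66930284 and Ly96 at chr1:16688051-16709611, both on the plus strand, and Lbp at chr2:158306493-158332852, also on the plus strand. Tlr2 lies on the minus strand at chr3:83836272-83841767, and so do Myd88 at chr9:119335934-119341411, Tirap at chr9:35184551-35200291, Ticam1 at chr17:56269319-56276786 and Irak3 at chr10:120141648-120202130. Exons of Ticam2 overlap those of Tmed7 on the same strand, so the values of Ticam2 are uncertain. Exons of Myd88 overlap Acaa1a, those of Tirap overlap Srpr and Gm39318, and those of Irak3 overlap Tmbim4 and Gm47009, each on the opposite strand, and whether counting used strand is not given in the sources used here.

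Promoters are shown for the 4 members with a RefSeq start site (GRCm38.p6) that were called higher in IM at 2h after LPS. RefSeq windows were matched for 5 of the 10 members by symbol. Each printed stretch ends before the RefSeq start and holds no annotated exon. It lies outside the GENCODE gene for Tlr2, Irak3 and Ticam1 and between exons of the longer GENCODE model for Myd88. Capitals mark matches to the motifs searched on both strands, which were the κB consensus of NF-κB, the core of the interferon-stimulated response element (GAAA, any 2 bases, GAAA) and the AP-1 site TGANTCA.
Tlr2 promoter, chr3:83841768-83841858, minus strand: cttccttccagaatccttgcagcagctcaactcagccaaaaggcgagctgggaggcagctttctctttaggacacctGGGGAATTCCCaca
Myd88 promoter, chr9:119340042-119340268, minus strand: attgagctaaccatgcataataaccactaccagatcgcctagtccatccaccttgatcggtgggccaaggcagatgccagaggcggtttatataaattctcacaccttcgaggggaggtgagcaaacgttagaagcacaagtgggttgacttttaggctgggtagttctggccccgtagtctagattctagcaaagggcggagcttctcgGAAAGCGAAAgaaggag
Irak3 promoter, chr10:120202196-120202380, minus strand: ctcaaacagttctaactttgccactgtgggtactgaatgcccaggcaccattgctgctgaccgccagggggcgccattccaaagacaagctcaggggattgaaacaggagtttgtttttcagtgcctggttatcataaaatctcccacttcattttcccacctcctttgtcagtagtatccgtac
Ticam1 promoter, chr17:56276787-56277017, minus strand: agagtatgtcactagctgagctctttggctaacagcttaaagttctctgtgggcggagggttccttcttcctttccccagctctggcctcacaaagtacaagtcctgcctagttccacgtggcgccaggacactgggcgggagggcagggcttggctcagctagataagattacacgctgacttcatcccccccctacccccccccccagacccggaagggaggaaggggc
In Tlr2, 2 overlapping κB matches start 173 and 172 bases before the RefSeq start, and a further match 8 bases before it falls outside the printed stretch. In Myd88, the response element core starts 40 bases before the start, and the windows of Irak3 and Ticam1 held none of the 3 motifs. Of 32851 promoter windows of 300 bases in the same table, 8.46% held a κB match, 3.44% the response element core and 7.81% the AP-1 site. A match is a description of the letters and not a measured binding site.

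The TPM columns summed to between 331473 and 551635, and 4068 to 7298 genes per library reached 5 TPM. Read depth is unknown, because TPM does not keep it. The ribosomal RNA precursor Rn45s held 14.8% to 33.3% of the column sum in the 6 libraries of title code N160623 (N stands for a title with no letter) and 4.33% to 25.0% in the others. All IM and IMo libraries at 0h carry code A171227 or B171227 and all of them after LPS carry A161219, B161219 or N160623, so in these cell types the code and LPS cannot be told apart. AM 0h N160623 alone links 0h to the codes of the ip libraries. Of 10 alveolar macrophage markers (Siglecf, Marco, Car4 and others), all averaged at least 5 TPM in AM at each time, with sums of 3773 to 14973 TPM per library against 329 to 2047 in IM and 583 to 1070.2 in IMo. Of 10 interstitial macrophage markers, among them the complement genes C1qa and C1qb, all 10 averaged 5 TPM in IM at 0h (sums 6388 and 7730 TPM). Sums were 440 to 1154 at 2h, 590 to 601 at 6h and 2294 to 2482 at 20h. The same 10 summed in IMo to 655 to 1152 at 2h, 270 to 288 at 6h and 1904 to 2052 at 20h. Classical monocyte markers (7 genes) summed to 3064 to 6200 in IM at 2h, 2072 to 5932 at 6h and 2609 to 2926 at 20h. Those of IMo summed to 4818 to 6733, 4062 to 5135 and 2193 to 2970 TPM at these times. The monocyte sums of IM and IMo thus overlapped at each time after LPS, and the interstitial macrophage sums at 2h. The 10 neutrophil markers summed to 11176 to 56844 TPM in the libraries labelled IM, above the interstitial macrophage sum in 8 of 8, to 135 to 3059 in IMo and to 24.7 to 442 in AM. Ly6g and Camp were listed at 0 in all AM libraries at 0h and Camp in both IM libraries at 0h. IM at 0h also held sums of 528 and 711 TPM for 8 endothelial, 348 and 705 for 8 lung epithelial and 331 and 363 for 6 fibroblast markers, against 8.44 to 41.6, 17.7 to 59.0 and 1.11 to 7.46 TPM in IM after LPS. The AM library A161219 at 20h held 3826 TPM of interstitial macrophage markers, where the other 10 AM libraries held 22.4 to 115. Their part in the results below was not tested, and in sorted bulk samples fewer cells of a type and less RNA per cell cannot be told apart.

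Differences were tested with limma on log2(TPM + 1) over all genes, and a gene was called at an adjusted p under 0.05 (Benjamini-Hochberg). Because the median of all genes itself moved between groups, by −0.79 on the log2 scale in IM at 2h against 0h and by −0.42 in IMo, each log2 difference below is given relative to that median, with its standard error (SE). P-values refer to the values before the subtraction. Quantile normalization moved the median of the first contrast by 0.78. Ratios of means are on the TPM scale, without subtraction.

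Cd14, the surface protein that takes LPS from Lbp to TLR4 and MD-2, reached the highest level of the members. Its gene lies on chromosome 18. It stood at 114 and 82.4 TPM in IM at 0h and reached 836 and 1399 TPM at 2h. It stood at 503 and 302 TPM at 6h and 187 and 153 TPM at 20h. In IMo it went from 69.2 and 41.6 TPM at 0h to 351 and 749 TPM at 2h, 89.6 and 132 TPM at 6h and 87.8 and 69.9 TPM at 20h. Every 2h library of both cell types lay above every 0h library. AM showed 107, 65.9, 83.6 and 32.7 TPM at 0h and between 38.6 and 70.7 TPM after LPS, within the range at 0h. Cd14 rose 11.4-fold in mean TPM in IM at 2h (relative log2 difference 4.26, SE 0.48, adjusted p = 6.80e-06) and 9.93-fold in IMo (3.66, SE 0.48, adjusted p = 2.93e-05). Both calls held in each alternative run. In IM it was still 4.10-fold above 0h at 6h (2.53, SE 0.48, adjusted p = 0.00394), where adjusted p was 0.0597 without IM 0h B171227 and 0.0559 without IM 6h A161219. At 20h the difference in IM was 0.89 (95% interval −0.10 to 1.88, adjusted p = 0.318).

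The fall of Cd14 from 2h to 6h passed the test in IMo (relative log2 difference −2.14, SE 0.48, adjusted p = 0.00432), with adjusted p = 0.138 without IMo 2h B161219 and 0.0534 without IMo 6h A161219. In IM the same step was −1.67 (95% interval −2.66 to −0.68, adjusted p = 0.0632), and it was called after quantile normalization (0.0416), after rescaling without Rn45s and Lars2 (0.0164) and with a term for title code (0.0157). At 0h no difference of Cd14 between cell types passed the test. After LPS its mean in IM was 16.5 times that in AM at 2h (4.75, SE 0.48, adjusted p = 5.29e-07), 8.09 times at 6h (3.35, SE 0.44, adjusted p = 1.11e-05) and 3.92 times at 20h (1.71, SE 0.48, adjusted p = 0.00459, and 0.0533 without IM 20h A161219). In IMo at 2h the mean was 8.12 times that in AM (3.20, SE 0.48, adjusted p = 3.63e-05). IMo had less Cd14 than IM at 6h (−1.94, SE 0.48, adjusted p = 0.0338), a call lost without IM 6h A161219, IMo 6h A161219 or IMo 6h B161219 (adjusted p = 0.348, 0.218 and 0.1005) and when no filter on low values was applied (0.0691). The neutrophil sum in the IMo libraries was 135 to 216 TPM at 0h, 336 to 673 TPM at 2h, 1753 to 3059 TPM at 6h and 2877 to 2907 TPM at 20h. IM held 11176 to 22483.5 TPM at 0h, 19758 to 22409.5 at 2h, 17228 to 56844 at 6h and 28140 to 34823.5 at 20h. The sum of 56844 TPM was that of IM 6h A161219, and the part of these sums in the results was not tested.

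Lbp, the plasma protein that extracts LPS from bacterial membranes and is made mainly by the liver, was near absent from AM. The 11 AM libraries held 0 to 0.677 TPM, with a median of 0.299. IM held 3.94 and 3.51 TPM at 0h, 3.23 and 2.61 TPM at 2h, 9.62 and 4.87 TPM at 6h and 3.68 and 3.36 TPM at 20h. IMo held 10.5 and 3.17 TPM at 0h, 18.8 and 6.18 TPM at 2h, 6.73 and 7.02 TPM at 6h and 2.54 and 0.855 TPM at 20h. Every IM and IMo library lay above every AM library. Lbp reached 5 TPM in 6 libraries, all of IM or IMo, so it entered the test through the groups where it is higher; with no filter on low values the calls against AM given below also passed. Since AM values lie under the pseudocount of 1 TPM, a log2 difference understates the distance, and no ratio is given. The relative log2 difference from AM was 1.78 in IM at 0h (SE 0.40, adjusted p = 0.00115), 2.23 at 2h (SE 0.46, adjusted p = 0.00976), 3.04 at 6h (SE 0.42, adjusted p = 2.53e-05) and 1.55 at 20h (SE 0.46, adjusted p = 0.00622). The 2h call was lost without AM 2h N160623 or IM 2h A161219 (adjusted p = 0.0538 and 0.0505), and the 20h call without AM 20h N160623 or IM 20h A161219 (0.0611 and 0.0501). With a pseudocount of 4 TPM they stood at 0.0639 and 0.0559, and without the 6 libraries of code N160623 at 0.101 and 0.0627. In IMo the difference from AM was 2.19 at 0h (SE 0.40, adjusted p = 5.54e-05), 3.37 at 2h (SE 0.46, adjusted p = 9.88e-06) and 2.87 at 6h (SE 0.42, adjusted p = 3.02e-05), and 0.81 at 20h (adjusted p = 0.160).

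The IMo libraries at 20h also differed from those at 0h in marker sums. The 7 classical monocyte markers summed to 8231 to 12800 TPM at 0h and 2193 to 2970 TPM at 20h, and the neutrophil markers to 135 to 216 and 2877 to 2907 TPM; their part in the result was not tested. Within IMo, Lbp at 20h was lower than at 0h (relative log2 difference −1.12, SE 0.46, adjusted p = 0.0281) and than at 6h (−1.81, SE 0.46, adjusted p = 0.0462). The first call was lost without IMo 0h A171227 (−0.40, adjusted p = 0.397) or IMo 20h B161219 (−0.66, adjusted p = 0.289), in the fit with a term for title code (0.307), after rescaling without Rn45s and Lars2 (0.157), with no filter on low values (0.0694) and with a pseudocount of 0.25 TPM (0.0559). The second was lost for 12 of the 27 libraries left out singly, with adjusted p up to 0.374, with pseudocounts of 0.25 and 4 TPM (0.0858 and 0.0634) and with no filter on low values (0.0697).

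Tlr4, the signalling receptor, was highest in AM, where it stood at 18.8, 19.5, 18.0 and 9.95 TPM at 0h, 22.7 and 12.6 TPM at 2h, 14.5, 16.6 and 7.40 TPM at 6h and 8.92 and 16.2 TPM at 20h. IM held 5.50 and 6.91 TPM at 0h, 14.2 and 3.02 TPM at 2h, 11.5 and 6.39 TPM at 6h and 7.91 and 9.14 TPM at 20h. IMo held 6.61 and 5.04 TPM at 0h, 4.11 and 2.15 TPM at 2h, 3.10 and 2.85 TPM at 6h and 3.23 and 5.26 TPM at 20h. Every IMo library lay below every AM library, while IM and AM overlapped after LPS. The mean in AM was 2.85 times that in IMo at 0h (IMo minus AM −1.48, SE 0.43, adjusted p = 0.0212), 5.64 times at 2h (−1.87, SE 0.50, adjusted p = 0.00128) and 4.31 times at 6h (−1.51, SE 0.45, adjusted p = 0.00517). At 20h the difference was −1.50 (95% interval −2.53 to −0.47, adjusted p = 0.0674). The 0h call was lost without AM 0h C171227, IMo 0h A171227 or IMo 0h B171227 (adjusted p = 0.0517, 0.0681 and 0.178), and the 6h call without IMo 6h B161219 (0.0502). With no filter on low values the 0h call stood at 0.0524. Against IM, AM was 2.67 times higher at 0h (IM minus AM −1.26, SE 0.43, adjusted p = 0.0335), which did not hold for 5 of the 27 libraries left out singly (adjusted p of 0.0639 to 0.230) or with no filter on low values (0.0650). At 2h IM was called lower than AM (adjusted p = 0.0454), but the relative log2 difference of −0.43 had a 95% interval of −1.46 to 0.60, and it turned to 0.21 without the 6 libraries of code N160623 (adjusted p = 0.204). That call was lost for 10 libraries left out singly (up to 0.743), with no filter on low values (0.102) and after quantile normalization (0.114). Tlr4 passed the test at no time after LPS in any cell type, with relative log2 differences of −0.22 to 0.11 in AM, 0.50 to 0.96 in IM and −0.33 to −0.09 in IMo. After quantile normalization it was called higher in IM at 2h (0.91, adjusted p = 0.0277) and 6h (1.00, adjusted p = 0.0208). Without the 6 libraries of code N160623 IM at 2h and 6h and AM at 2h and 20h keep 1 library each, assumed to vary like the other groups. There Tlr4 was called higher in IM at 2h (adjusted p = 0.0208), where the library left held 14.2 TPM and the other 3.02 TPM, and lower in IMo at 2h and 6h (0.0432 and 0.0422) and in AM at 20h (0.0464).

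Ly96 encodes MD-2, the lipid-binding partner of TLR4, and it was lowest in AM, where Tlr4 was highest. AM held 16.3, 15.0, 12.3 and 4.40 TPM at 0h, and IM held 35.7 and 46.2 TPM and IMo 36.0 and 34.1 TPM. At 2h the values were 18.4 and 7.96 TPM in AM, 59.1 and 32.6 TPM in IM and 39.6 and 74.7 TPM in IMo. IM was higher than AM at 0h (3.41-fold, relative log2 difference 1.80, SE 0.62, adjusted p = 0.0321) and at 2h (3.48-fold, 2.53, SE 0.72, adjusted p = 0.0400). IMo was higher than AM at 2h (4.33-fold, 2.36, SE 0.72, adjusted p = 0.0239). These calls were lost without AM 0h N160623, IM 0h A171227 or IM 0h B171227 for the first (adjusted p = 0.0919, 0.110 and 0.209), without AM 2h N160623 or IM 2h A161219 for the second (0.229 and 0.191) and without AM 2h N160623 or IMo 2h B161219 for the third (0.167 and 0.197). With no filter on low values they stood at 0.0647, 0.0941 and 0.0608, and the second at 0.0520 with a pseudocount of 0.25 TPM. At 6h AM held 10.8, 19.7 and 2.17 TPM, IM 55.1 and 11.0 TPM and IMo 24.1 and 20.4 TPM. IM overlapped AM there, and neither difference from AM was called (adjusted p = 0.0769 and 0.135). The overlap lay between IM 6h N160623 (11.0 TPM) and AM libraries of other codes, and AM 6h N160623 held 2.17 TPM. At 6h IM was called above AM with a title code term (adjusted p = 0.000236), after quantile normalization (0.0131) and after rescaling (0.0428). IMo against AM at 6h was called after quantile normalization (0.0272) and after rescaling without Rn45s and Lars2 (0.0398). At 20h every IM and IMo library (18.0 to 34.7 TPM) lay above both AM libraries (12.6 and 4.43 TPM), with adjusted p of 0.0503 and 0.267. The 20h difference of IM was called with a title code term (0.0271) and after quantile normalization (0.0374). It was also called after rescaling and with a pseudocount of 4 TPM (0.0413 each). At 0h IMo against AM was not called (0.0546), but it was with that term (0.00707), that pseudocount (0.0387) and quantile normalization (0.0477). Ly96 passed the test against 0h at no time after LPS, and its 95% intervals against 0h were as wide as −0.43 to 2.52 in IMo at 2h.

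Tlr2, the lipoprotein receptor, had its highest 0h level in AM. AM held 140, 190, 210 and 80.4 TPM at 0h, 163 and 103 TPM at 2h, 96.5, 116 and 62.1 TPM at 6h and 46.8 and 99.5 TPM at 20h. IM went from 22.4 and 25.7 TPM at 0h to 237 and 125 TPM at 2h, 115 and 77.0 TPM at 6h and 23.9 and 30.4 TPM at 20h. IMo held 39.6 and 38.6 TPM at 0h, 35.2 and 62.3 TPM at 2h, 28.1 and 43.9 TPM at 6h and 21.1 and 16.1 TPM at 20h. In IM the 2h and 6h libraries lay above all those of 0h and 20h. At 0h AM had 6.44 times the mean of IM (IM minus AM −2.56, SE 0.41, adjusted p = 3.20e-05) and 3.97 times that of IMo (−2.02, SE 0.41, adjusted p = 0.00101). In IM Tlr2 rose 7.52-fold at 2h (3.59, SE 0.48, adjusted p = 6.99e-05) and was 3.99-fold above 0h at 6h (2.46, SE 0.48, adjusted p = 0.00497, and 0.0556 without IM 0h A171227 or 0.0553 without IM 6h A161219). It fell from 6h to 20h (−2.18, SE 0.48, adjusted p = 0.0362), a call lost without any 1 of the 4 IM libraries of those times (adjusted p of 0.0866 to 0.244) or with no filter on low values (0.0850). IM and AM overlapped at 2h and 6h (adjusted p = 0.485 and 0.900).

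In IMo Tlr2 stayed below AM at 2h (−1.15, SE 0.48, adjusted p = 0.0184), 6h (−1.08, SE 0.44, adjusted p = 0.0254) and 20h (−1.997, SE 0.48, adjusted p = 0.00794). Leaving out single libraries of the groups compared raised adjusted p to between 0.0673 and 0.203, for AM 2h B161219 (0.158), IMo 2h A161219 (0.173), AM 6h A161219 (0.0673), AM 6h B161219 (0.102), IMo 6h A161219 (0.203), AM 20h N160623 (0.158) and IMo 20h B161219 (0.0874). With no filter on low values the 6h call stood at 0.0506. IMo was also below IM at 2h (−2.26, SE 0.48, adjusted p = 0.0379), but not without IM 2h A161219 (0.136), IMo 2h A161219 (0.462) or AM 6h A161219 (0.0515), or with no filter on low values (0.0626). No change of Tlr2 against 0h passed the test in IMo or AM.

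**Figure D1:**
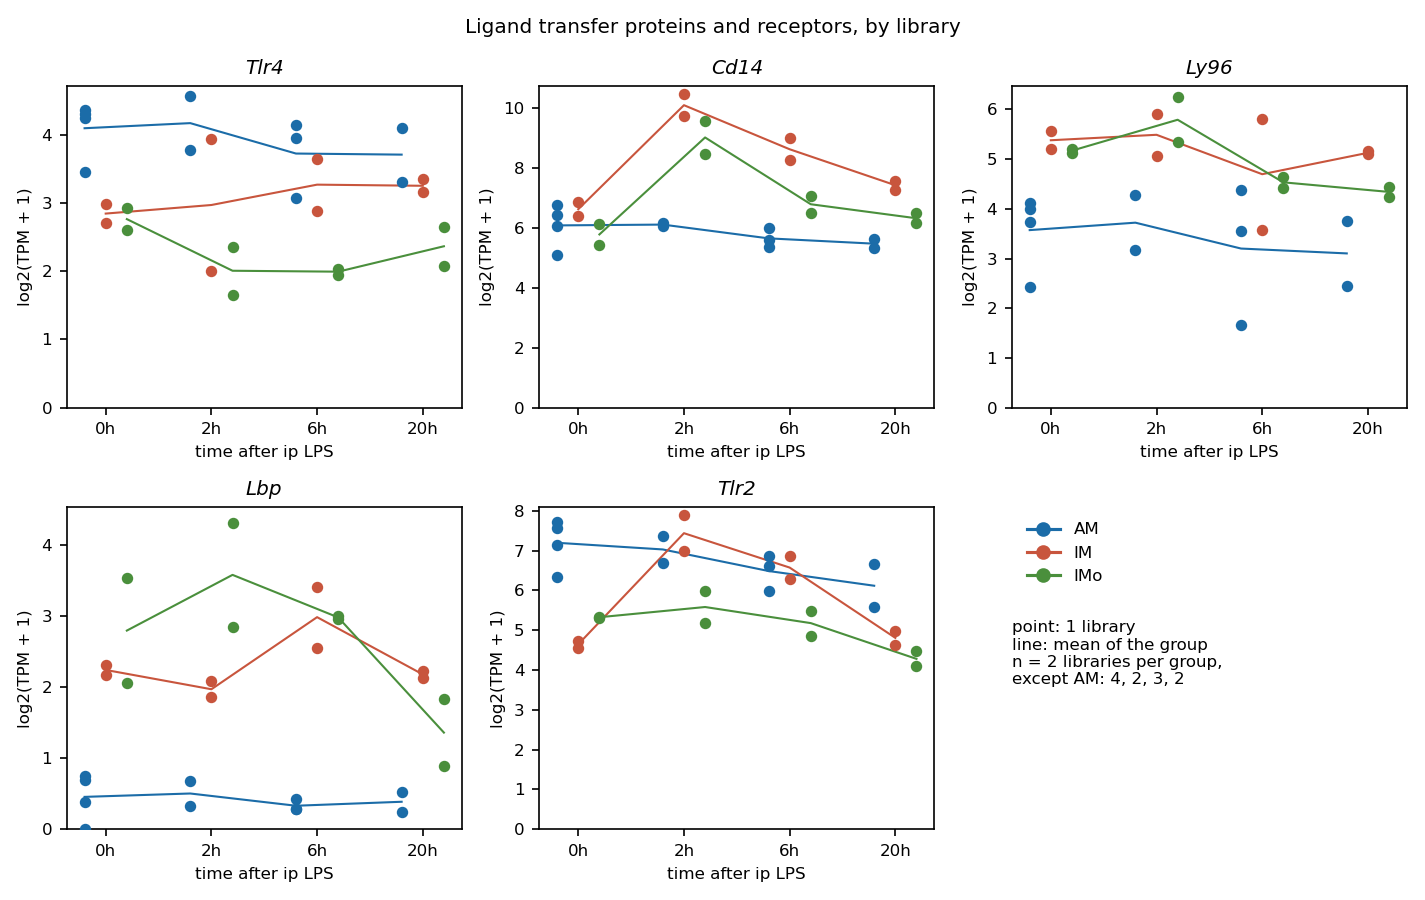
Each panel plots log2(TPM + 1) of 1 gene against time after ip LPS, with 1 point per library and a line through the group means of AM, IM and IMo. Cd14 in IM and IMo peaks at 2h, Tlr2 in IM lies between 77.0 and 237 TPM at 2h and 6h, and Lbp stays at or below 0.677 TPM in all AM libraries.

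Tirap, the sorting adaptor that brings MyD88 to the membrane, varied little. Its 27 values ran from 4.38 to 14.2 TPM, and it was called in no comparison. The lowest values were those of IMo at 20h, 4.71 and 4.38 TPM, and the highest was 14.2 TPM in IM 2h A161219. In IM at 2h the relative log2 difference against 0h was 1.37 (95% interval 0.76 to 1.98), with adjusted p = 0.109 for the value before subtraction of the median (0.58). Where the scaling brought the median near 0, by quantile normalization, Tirap was called higher in IM at 2h (adjusted p = 7.09e-05) and 6h (0.0164) and in IMo at 2h (0.0233). After rescaling without Rn45s and Lars2 it was called higher at 2h in IM (0.0184) and IMo (0.0427). Without the 6 libraries of code N160623, which leaves 1 IM library at 2h, the relative difference there was 1.41. Whether Tirap was called thus depended on the scaling and on the libraries kept.

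Myd88, the adaptor shared by TLR2, TLR4 and the interleukin-1 receptors, had its lowest means in AM. AM held 87.1, 89.3, 109 and 39.7 TPM at 0h and 36.5 to 109 TPM after LPS. IM held 125 TPM in both libraries at 0h, 361 and 213 TPM at 2h, 176 and 93.5 TPM at 6h and 132 and 155 TPM at 20h. IMo held 191 and 152 TPM at 0h, 269 and 337 TPM at 2h, 138 and 158 TPM at 6h and 98.3 and 108 TPM at 20h. Libraries of 2h lay above those of every other time in IM and IMo. Myd88 rose 2.29-fold in IM at 2h (relative log2 difference 1.93, SE 0.43, adjusted p = 0.0337), which did not hold without IM 0h A171227 (0.112), IM 0h B171227 (0.110) or IM 2h A161219 (0.218), or with no filter on low values (0.0660). In IMo the difference at 2h was 1.24 (95% interval 0.34 to 2.14, adjusted p = 0.155), and it was called after quantile normalization (0.00111). IM was above AM at 2h (3.32-fold, 2.48, SE 0.43, adjusted p = 0.00209), 6h (2.22-fold, 1.47, SE 0.40, adjusted p = 0.0355) and 20h (3.29-fold, 1.47, SE 0.43, adjusted p = 0.00591). IMo was above AM at 0h (2.11-fold, 1.00, SE 0.38, adjusted p = 0.0225), 2h (3.50-fold, 2.13, SE 0.43, adjusted p = 0.00165) and 6h (2.43-fold, 1.51, SE 0.40, adjusted p = 0.0163). At 20h the groups did not overlap (adjusted p = 0.0520).

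Both 2h differences of Myd88 from AM held in each alternative run. Of the others, IM against AM was lost at 6h without AM 6h A161219, AM 6h N160623 or IM 6h A161219 (adjusted p = 0.0623, 0.106 and 0.343) or with no filter on low values (0.0773), and at 20h without AM 20h A161219 or IM 20h B161219 (0.0684 and 0.0633). IMo against AM was lost at 0h without AM 0h N160623, IMo 0h A171227 or IMo 0h B171227 (0.0692, 0.188 and 0.0705), and at 6h without AM 6h N160623, IMo 6h A161219 or IMo 6h B161219 (0.0611, 0.0516 and 0.124).

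The adaptors of the endosomal branch were called in opposite directions at 2h, Ticam1 (TRIF) higher and Ticam2 (TRAM) lower. Ticam1 stood at 5.65 and 4.98 TPM in IM at 0h, 16.5 and 11.4 TPM at 2h, 9.37 and 5.26 TPM at 6h and 8.09 and 12.2 TPM at 20h. In IMo it stood at 5.86 and 7.97 TPM at 0h, 25.6 and 22.6 TPM at 2h, 12.2 and 16.3 TPM at 6h and 9.49 and 11.1 TPM at 20h. AM held 2.54 to 7.45 TPM in its 11 libraries. Ticam1 rose 2.62-fold in IM at 2h (relative log2 difference 2.02, SE 0.36, adjusted p = 0.00726, and 0.0664 without IM 2h A161219) and 3.48-fold in IMo at 2h (2.10, SE 0.36, adjusted p = 0.00106). In the fit with a term for title code these stood at adjusted p = 0.0985 and 0.125. In IMo at 6h Ticam1 was 2.07-fold above 0h (1.43, SE 0.36, adjusted p = 0.0478), a call lost for 17 of the 27 libraries left out singly (up to 0.256), in the fit with a term for title code (0.672), with no filter on low values (0.0865) and with a pseudocount of 0.25 TPM (0.0592). Against AM, Ticam1 was higher at 2h in IM (1.90, SE 0.36, adjusted p = 0.0101; 0.108 without AM 2h N160623 and 0.0877 without IM 2h A161219) and in IMo (2.20, SE 0.36, adjusted p = 0.000161), and at 6h in IMo (1.80, SE 0.33, adjusted p = 0.000648).

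Ticam2, also on chromosome 18, stood at 3.50 and 7.73 TPM in IM at 0h, 2.01 and 1.14 TPM at 2h, 3.29 and 3.95 TPM at 6h and 7.96 and 5.65 TPM at 20h. In IMo it stood at 6.58 and 7.31 TPM at 0h, 4.30 and 1.19 TPM at 2h, 4.66 and 1.68 TPM at 6h and 7.39 and 7.46 TPM at 20h, and AM held 4.44 to 10.4 TPM. In IM and IMo the 2h libraries lay below all those of 0h. Mean TPM at 2h was 3.57 times lower than at 0h in IM (adjusted p = 0.0161) and 2.53 times lower in IMo (adjusted p = 0.0335). Relative to the median of all genes, which fell too, the log2 differences were −0.51 (95% interval −1.41 to 0.38) and −0.80 (−1.69 to 0.10), and after quantile normalization adjusted p was 0.453 and 0.170. In the fit with a term for title code adjusted p was 0.295 and 0.394. The IM call was also lost without IM 0h B171227 (−0.07, adjusted p = 0.213) or IM 2h N160623 (0.130) or all 6 libraries of code N160623 (0.115), and the IMo call without IMo 0h A171227 (0.0952), IMo 0h B171227 (0.139) or IMo 2h B161219 (0.442), after rescaling without Rn45s and Lars2 (0.172) and with no filter on low values (0.0651). Ticam2 was below AM at 2h in IM (−0.81, SE 0.43, adjusted p = 0.00394; 0.0997 without AM 2h B161219) and IMo (−0.86, SE 0.43, adjusted p = 0.0369; 0.352 without AM 2h B161219 and 0.486 without IMo 2h B161219). Both relative intervals reached above 0 (−1.71 to 0.08 and −1.76 to 0.03). After quantile normalization adjusted p was 0.0741 and 0.163, and the second stood at 0.0850 with no filter on low values. Tmed7, whose exons share sequence with Ticam2, is a cargo receptor of the secretory pathway.

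Irak3 had lower values in AM than in the other cell types. AM held 8.98, 6.48, 9.57 and 3.94 TPM at 0h and 3.30 to 6.12 TPM after LPS. IM went from 10.4 and 12.01 TPM at 0h to 130 and 67.7 TPM at 2h, 99.2 and 51.4 TPM at 6h and 61.9 and 70.6 TPM at 20h. IMo went from 18.3 and 17.9 TPM to 27.8 and 55.1, 42.3 and 31.2, and 28.7 and 34.4 TPM. Every library of IM and IMo lay above every AM library, and every library after LPS lay above the 0h libraries of its cell type in IM and IMo. In IM Irak3 rose 8.84-fold at 2h (relative log2 difference 3.76, SE 0.42, adjusted p = 8.26e-06), 6.73-fold at 6h (3.11, SE 0.42, adjusted p = 8.24e-05) and 5.91-fold at 20h (2.55, SE 0.42, adjusted p = 0.000181). It was the 1 member called against 0h at each time in IM. In IMo the ratios were 2.28, 2.02 and 1.74 and did not pass the test, with relative log2 differences of 1.50 (95% interval 0.63 to 2.36, adjusted p = 0.0521), 1.45 (0.58 to 2.31, adjusted p = 0.0854) and 1.07 (0.21 to 1.93, adjusted p = 0.196). After quantile normalization Irak3 was called higher in IMo at each time (adjusted p = 0.000773, 0.000326 and 0.00600). After LPS the mean of IM was 20.5, 17.2 and 14.9 times that of AM at 2, 6 and 20h (adjusted p = 6.53e-08, 6.35e-08 and 6.38e-07), and that of IMo 8.59, 8.38 and 7.08 times (1.02e-05, 3.74e-06 and 7.61e-05). At 0h IMo was 2.51 times above AM (1.13, SE 0.36, adjusted p = 0.00871), with 0.0695 and 0.0645 when IMo 0h A171227 or IMo 0h B171227 was left out. IM against AM at 0h was not called (adjusted p = 0.235), nor was IMo against IM at any time (0.484, 0.117, 0.297 and 0.460 at 0, 2, 6 and 20h). Yet at each time after LPS both IMo libraries lay below both IM libraries. The difference was −1.64 at 2h (95% interval −2.50 to −0.78) and −1.06 at 6h (−1.92 to −0.20). Quantile normalization gave a call at 2h and 6h (adjusted p = 0.0113 and 0.0437). The 2h difference was also called after rescaling without Rn45s and Lars2 (0.0137) and with a term for title code (0.0262).

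**Figure D2:**
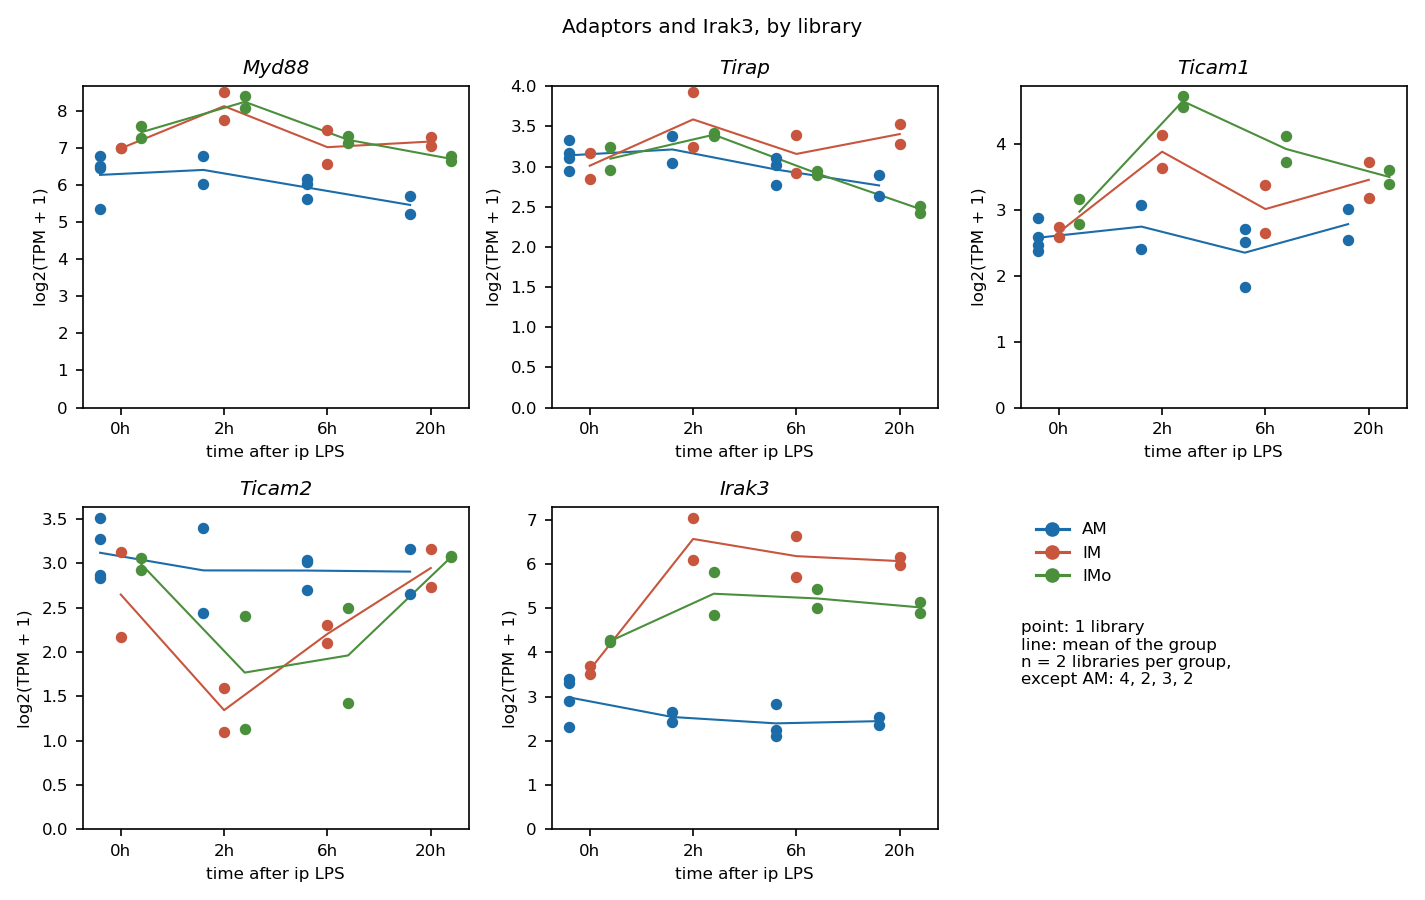
Each panel plots log2(TPM + 1) of 1 gene against time after ip LPS, with 1 point per library and a line through the group means of AM, IM and IMo. Irak3 stays between 51.4 and 130 TPM in IM after LPS and at or below 9.57 TPM in AM, and Ticam1 peaks at 2h in IM and IMo where Ticam2 is lowest.

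At 0h, 4 of the 10 members differed between IM and AM (Ly96 and Lbp higher, Tlr4 and Tlr2 lower), where 26% of all genes tested were called. Between IMo and AM 5 were called (Lbp, Myd88 and Irak3 higher, Tlr4 and Tlr2 lower) against 29.6% of all genes. Between IMo and IM none were (7.06% of all genes; no member had an unadjusted p under 0.05 in limma either). Both comparisons share the AM libraries. The difference between IMo and IM in Cd14, the largest of the members, was −0.99 (95% interval −1.98 to 0.01).

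In AM after LPS none of the members was called at 2h, 6h or 20h against 0h, where 0.134%, 1.3% and 0.112% of all genes were, and in limma 0, 0 and 2 members had an unadjusted p under 0.05, of 283, 871 and 805 genes. Those at 20h were Tlr2, with a relative log2 difference of −0.77 (95% interval −1.62 to 0.08, adjusted p = 0.462), and Myd88, with −0.50 (−1.28 to 0.28, adjusted p = 0.543). Without the 6 libraries of code N160623, which leaves 1 AM library at 2h and at 20h, assumed to vary like the other groups, Tlr2 (adjusted p = 0.00368), Myd88 (0.00640) and Tlr4 (0.0464) were called lower in AM at 20h. The library left at 20h is the 1 with the high interstitial macrophage sum. Within code N160623, with 1 library per time, Cd14 in AM stood at 32.7, 64.7, 62.9 and 48.2 TPM at 0, 2, 6 and 20h, Tlr2 at 80.4, 103, 62.1 and 99.5 TPM and Irak3 at 3.94, 4.35, 3.74 and 4.82 TPM.

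In IM, 6 members were called at 2h (Cd14, Tlr2, Myd88, Ticam1 and Irak3 higher, Ticam2 lower) against 48.7% of all genes. In IM 3 were called at 6h (Cd14, Tlr2 and Irak3 higher) against 25.5%, and Irak3 alone at 20h against 12.4%. In IMo, 3 were called at 2h (Cd14 and Ticam1 higher, Ticam2 lower) against 32.4% of all genes. In IMo Ticam1 alone was called at 6h against 29.1%, and Lbp alone, lower, at 20h against 22.2%. Counted in either direction, the share of members called thus lay near that of all genes in IM at each time and at or below it in IMo. The directions differed at 2h. In IM 5 members rose and 1 fell, where 714 of all 8937 genes rose and 3642 fell. In IMo 2 members rose and 1 fell, where most of the genes called fell (2145 of all 8937). The median log2 difference of the 10 members at 2h was 0.86 in IM, where that of all genes tested was −0.79, and 0.70 in IMo, where it was −0.42.

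**Figure D3:**
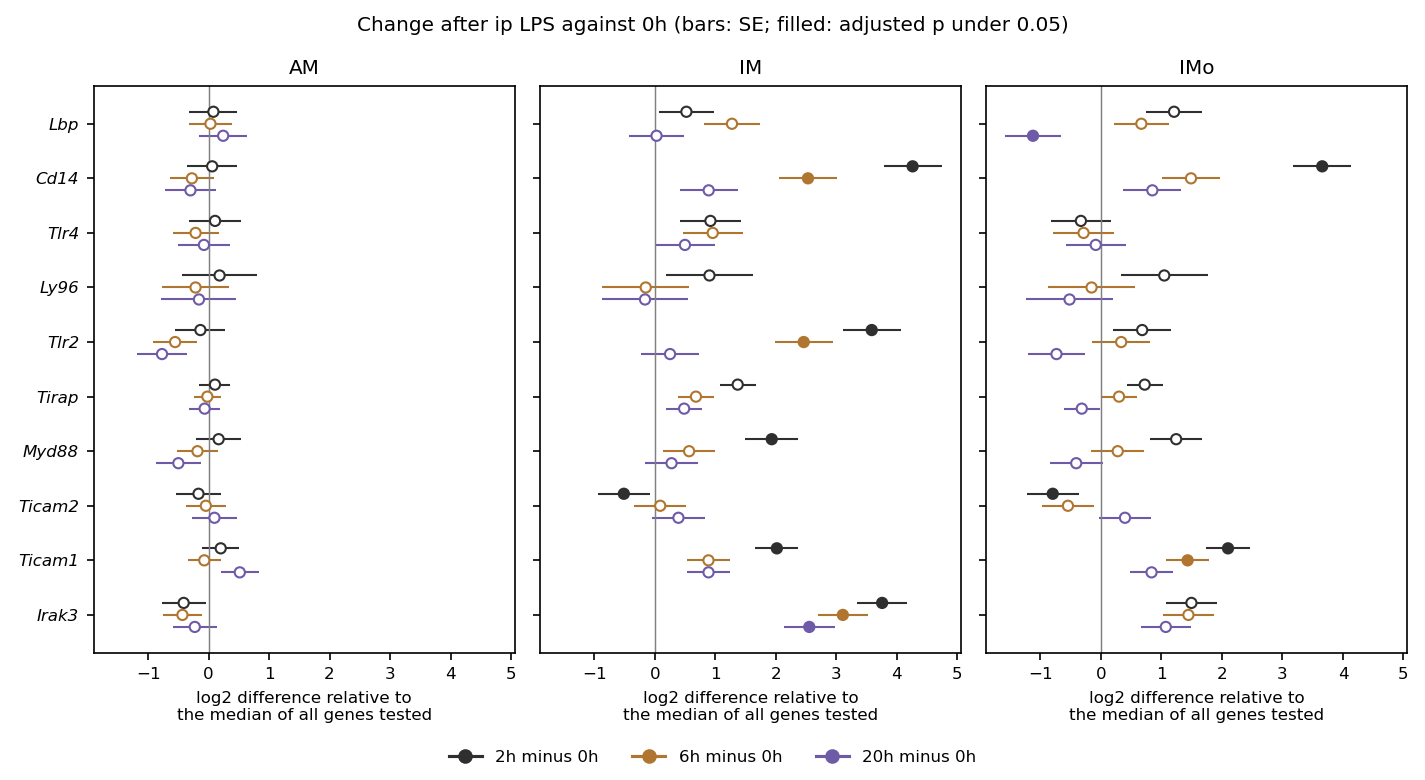
Log2 differences of the 10 members against 0h, with the median over all tested genes subtracted, are plotted for AM, IM and IMo at 2, 6 and 20h; bars are the SE and filled points passed an adjusted p under 0.05. No point is filled in AM, and the largest values are those of Cd14, Irak3 and Tlr2 in IM at 2h (4.26, 3.76 and 3.59).

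Between ip times, which use no 0h library, Tlr2 fell in IM from 6h to 20h (4.7% of all genes called), Cd14 fell in IMo from 2h to 6h (8.12%) and Lbp fell in IMo from 6h to 20h (4.03%). No member was called from 2h to 6h in IM (7.21% of all genes), where limma gave 4 members an unadjusted p under 0.05. None was called from 2h to 6h or 6h to 20h in AM (0% and 0.0336%), with 0 members and 110 and 350 genes at an unadjusted p under 0.05.

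Across cell types after LPS, more members were called between AM and the other 2 than between IMo and IM. The shares of all genes called were also larger there. IM differed from AM in 8 members at 2h (54.6% of all genes called), 4 at 6h (35.9%) and 4 at 20h (18.5%), and Cd14, Lbp, Myd88 and Irak3 were among those higher in IM at each of these times. IMo differed from AM in 9 members at 2h (39.9% of all genes), 6 at 6h (29.1%) and 2 at 20h (16.9%), of which Irak3 was higher and Tlr2 lower at each time. IMo and IM differed in Tlr2 alone at 2h (2.45%), in Cd14 alone at 6h (3.21%) and in no member at 20h (1.25%; limma gave 3 members and 628 genes an unadjusted p under 0.05). These comparisons lie within the ip libraries, and at 2h within codes A161219 and B161219 Cd14 stood at 70.7 TPM in the AM library, 1399 in the IM library and 351 and 749 in the IMo libraries. Irak3 stood at 5.30, 130, 27.8 and 55.1 TPM.

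**Figure D4:**
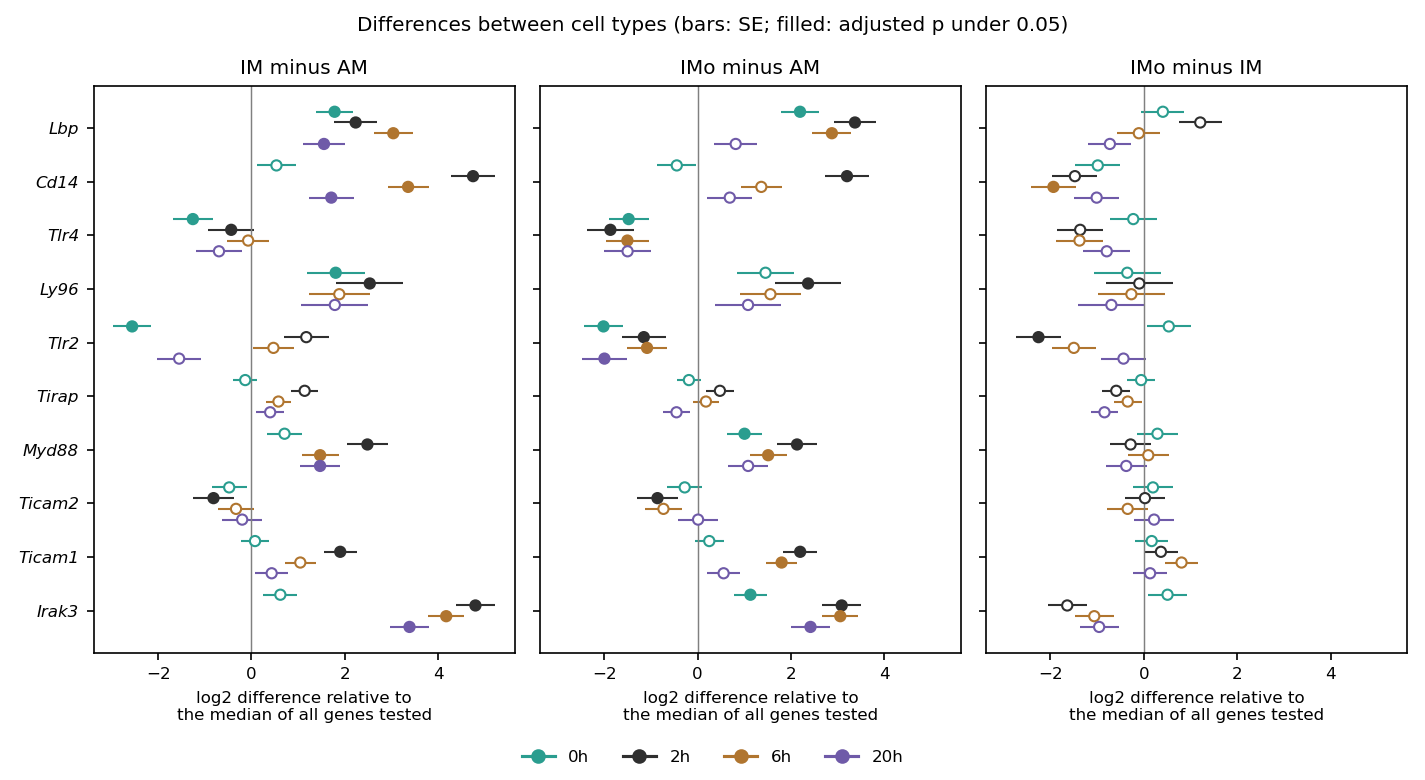
Log2 differences between cell types, with the median over all tested genes subtracted, are plotted for the 10 members at 0, 2, 6 and 20h; bars are the SE and filled points passed an adjusted p under 0.05. Lbp and Irak3 lie to the right and Tlr4 and Tlr2 to the left of 0 in IMo against AM at each time, and the panel of IMo against IM has 2 filled points.

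The response to LPS over the 3 times was compared between cell types with a moderated F test. Against AM, the IM response differed for Cd14 (adjusted p = 0.00259), Irak3 (adjusted p = 0.000306) and Tlr2 (adjusted p = 0.00382). These are 3 of 10 members, where 26.5% of all genes were called. The IM change exceeded the AM change by 3.44, 2.43 and 1.41 on the log2 scale, with no median subtracted, at 2, 6 and 20h for Cd14, by 3.41, 3.16 and 3.00 for Irak3 and by 2.96, 2.64 and 1.24 for Tlr2. On this scale the excess of Cd14 and Tlr2 was largest at 2h, and that of Irak3 was near its 2h size at 20h. Against 0h the median of all genes was −0.79 at 2h and −0.09 at 20h in IM. In AM it was −0.03 and −0.31. Relative to these medians, the Irak3 excess was smaller at 20h than at 2h. The IMo response differed from that of AM for Cd14 alone (adjusted p = 0.00846; 17.3% of all genes), with an excess of 3.21, 1.44 and 1.15 and an adjusted p of 0.0584 without IMo 2h B161219. No member was called between the IMo and IM responses (3.75% of all genes); Tlr2 came nearest (adjusted p = 0.102), and Irak3 stood at 0.188. Under other settings both were called. For Tlr2 adjusted p was 0.0112 after quantile normalization, 0.00931 after rescaling without Rn45s and Lars2, 0.0143 with a term for title code and 0.00428 without the 6 libraries of code N160623. For Irak3 it was 0.0193 after quantile normalization, 0.0331 with that term and 0.0206 without those libraries.

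Within a library, ratios of 2 members do not depend on how the TPM column was scaled. Cd14 was 2.74 to 8.50 times Tlr4 in the 11 AM libraries. In IM the ratio was 20.7 and 11.9 at 0h, 98.3 and 277 at 2h, 43.7 and 47.3 at 6h and 23.7 and 16.8 at 20h. In IMo it was 10.5 and 8.25, 85.3 and 348, 28.9 and 46.3, and 27.2 and 13.3. The ratio thus exceeded that of every AM library in all IM libraries and in all IMo libraries but 1, IMo 0h B171227. The ratios of 277 and 348 rest on low Tlr4, 3.02 TPM in IM 2h N160623 and 2.15 TPM in IMo 2h B161219. Ticam1 to Ticam2 was 1.61 and 0.644 in IM at 0h and 8.24 and 9.97 at 2h. It was 0.890 and 1.09 in IMo at 0h and 5.95 and 19.0 at 2h, with 0.461 to 1.35 in AM. Where it was 19.0, in IMo 2h B161219, Ticam2 stood at 1.19 TPM, and values of Ticam2 are uncertain. Irak3 to Myd88 was 0.0828 and 0.0957 in IM at 0h, 0.360 and 0.318 at 2h, 0.563 and 0.551 at 6h and 0.469 and 0.456 at 20h. In IMo it was 0.0960 and 0.118 at 0h, 0.103 and 0.164 at 2h, 0.306 and 0.198 at 6h and 0.292 and 0.319 at 20h, and in AM 0.0469 to 0.112 throughout. Relative to Myd88, Irak3 was thus higher at 6h than at 2h in both cell types, although its own mean was highest at 2h.

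**Figure D5:**
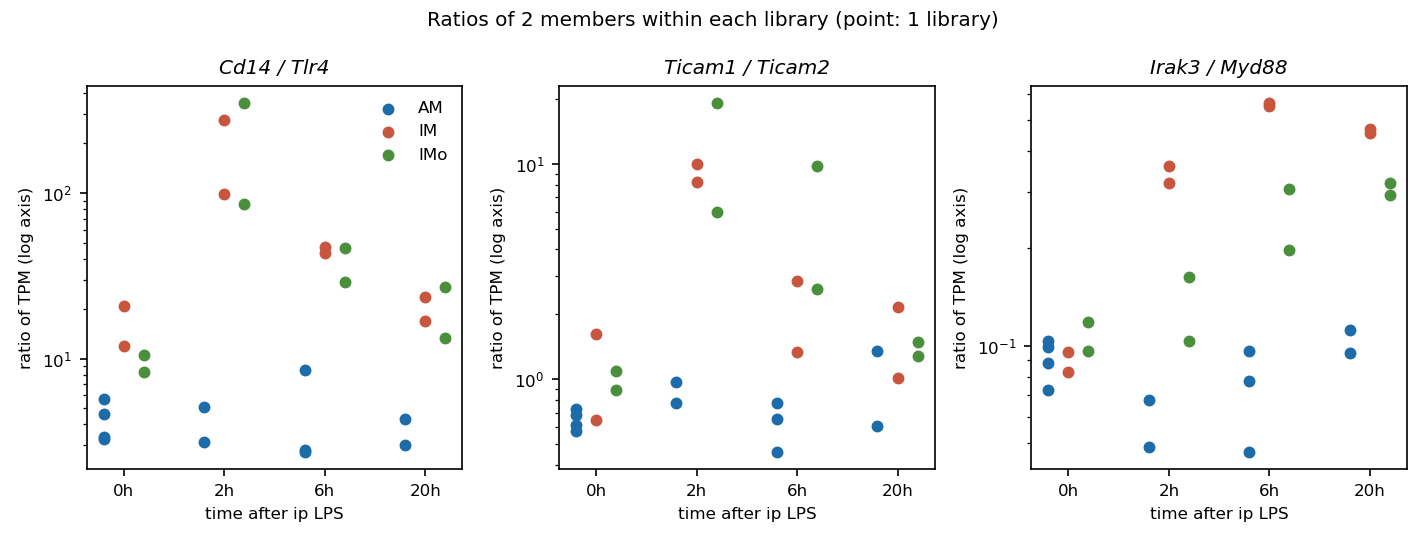
Ratios of TPM within each library (log axis) are plotted against time after ip LPS, with 1 point per library of AM, IM and IMo. Cd14 to Tlr4 and Ticam1 to Ticam2 peak at 2h in IM and IMo, while Irak3 to Myd88 lies between 0.456 and 0.563 in IM at 6h and 20h.

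Ordered by group mean, Irak3 ran from IM at 2h (98.9 TPM) through the later IM times to IMo after LPS, IMo at 0h, IM at 0h and the AM groups, the lowest of which was AM at 6h (4.39 TPM). Of the 11 neighbouring pairs of groups, 7 overlapped. For Cd14 the first was IM at 2h (1118 TPM), apart from IMo at 2h (550 TPM), and the last AM at 20h (43.4 TPM), with 8 of 11 neighbouring pairs overlapping. For Tlr4 the 4 AM groups came first and IMo at 6h last, and 10 of 11 pairs overlapped. For Ly96 and Ticam2 all 11 did. Over the 12 group means of log2(TPM + 1), the genes most like each member, as a description, were Cflar (r = 0.973) and Pim1 (0.962) for Cd14, N4bp1 (0.967) and Oas1g (0.963) for Irak3, Plxnc1 (0.956) and Ccni (0.948) for Tlr4. They were Lyn (0.978) and Ube2f (0.977) for Myd88. Those for Ticam1 were Ssr3 (0.962) and Dpf2 (0.951), for Ticam2 Ola1 (0.980) and Akr7a5 (0.974) and for Ly96 Tnfrsf1a (0.968) and Dmtf1 (0.964). Those for Lbp were Map4k4 (0.964) and Gpr141 (0.947), for Tlr2 Znrf1 (0.906) and Alas1 (0.891) and for Tirap Zfand3 (0.882) and Rcan1 (0.861). These groups share libraries and cell types, and the genes were picked from all those tested.

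Other genes of the pathway were taken as lists, which were also chosen with earlier results of these data known. Of 17 listed negative regulators 14 were tested. Of these, which include deubiquitinases, inhibitors and phosphatases, 9 rose and 1 fell in IM at 2h, where 714 of all 8937 genes rose and 3642 fell. In IMo 8 rose and 1 fell, where 32.4% of all genes were called and 2145 fell. The list had median log2 differences of 2.78 and 1.99 against −0.79 and −0.42 for all genes. Tnfaip3 (A20) went from a mean of 5.30 to 374 TPM in IM (relative log2 difference 6.69, SE 0.45, adjusted p = 4.53e-09) and from 2.29 to 227 TPM in IMo (6.54, SE 0.45, adjusted p = 1.23e-09). Tnip3, a partner of A20, went from 2.24 to 78.0 TPM in IM (5.32, SE 0.47, adjusted p = 2.32e-07) and from 0.900 to 87.9 TPM in IMo (5.92, SE 0.47, adjusted p = 1.23e-08). Its 0h means lay under the filter of 5 TPM in both, so it entered the test through groups where it is higher. Pik3ap1 (BCAP), a phosphoinositide 3-kinase adaptor, went from 12.6 to 184 TPM in IM (4.53, SE 0.46, adjusted p = 1.90e-06). Nfkbia, the inhibitor that holds NF-κB in the cytoplasm, went from 153 to 1913 TPM in IM (4.40, SE 0.61, adjusted p = 6.57e-05). At 20h 4 of the 14 were still higher and 1 lower in IM (12.4% of all genes called), and 4 higher and 2 lower in IMo (22.2%). Ly86 (MD-1), the MD-2-like partner of the TLR homologue CD180, was lower at 20h than at 0h in IM (mean 105 against 449 TPM, −1.99, SE 0.51, adjusted p = 0.00612) and in IMo (105 against 692 TPM, −2.39, SE 0.51, adjusted p = 0.000624). In AM 1 of the 14 was called, at 6h, the phosphatase Dusp1 (mean 115 against 28.0 TPM, 2.23, SE 0.34, adjusted p = 0.000968). Few genes of any kind were called there (0.134%, 1.3% and 0.112% of all genes at 2, 6 and 20h).

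Of 8 tested genes of the TRIF branch (9 listed) 4 rose and 1 fell in IM at 2h, against 48.7% of all genes called in either direction. In IMo 1 rose and 1 fell, against 32.4% of all genes called in either direction. Ikbke, the kinase IKKε that phosphorylates interferon regulatory factors, went from 6.66 to 316 TPM in IM (6.10, SE 0.56, adjusted p = 2.96e-07) and from 13.1 to 280 TPM in IMo (4.69, SE 0.56, adjusted p = 7.20e-06). Its level was 177 and 67.4 TPM at 20h. Azi2, an adaptor of TBK1, went from 16.9 to 63.8 TPM in IM (2.42, SE 0.50, adjusted p = 0.0103). Tbkbp1, another TBK1 adaptor, fell in IMo from 20.4 to 8.27 TPM (−1.31, SE 0.58, adjusted p = 0.0238). At 6h and 20h Ikbke was the 1 gene of the list that rose in either cell type. The shares of all genes called in either direction were 25.5% and 12.4% in IM and 29.1% and 22.2% in IMo. Of 10 tested kinases and ubiquitin enzymes of the MyD88 branch (14 listed), 3 rose and 1 fell in IM at 2h, and 2 rose in IMo. Both lay below the shares of all genes called in either direction. Irak2, a kinase of the MyD88 assembly, went from 10.6 to 49.3 TPM in IM (2.87, SE 0.34, adjusted p = 3.96e-05) and from 8.18 to 20.7 TPM in IMo (1.66, SE 0.34, adjusted p = 0.00690). Peli1, a ubiquitin ligase, went from 29.4 to 192 TPM in IM (3.34, SE 0.58, adjusted p = 0.00111). The ubiquitin ligase Traf6 went from 3.32 to 7.05 TPM in IM (1.67, SE 0.29, adjusted p = 0.0154), with its 0h mean under the filter of 5 TPM. The kinase Irak1 was called lower in IM at 2h (20.6 to 9.92 TPM, adjusted p = 0.0252), with a relative log2 difference of −0.32 (SE 0.40).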

How the data were processed

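RNA from sorted lung AM, IM and IMo was made into libraries by a modified Smart-seq2 method, per the labels' protocols. STAR, HOMER and the mm10 build are listed, without versions or settings, in the submitters' processing notes. The deposited values are TPM per gene, made by the authors; TPM keeps no depth, so counting error is unknown and precision rests on the 2 to 4 libraries per group. Of 45 libraries, 27 (8 at 0h, 19 ip) in 12 groups entered 1 fit. The 18 nasal columns were left out because their row names did not match their values (correlation with the other libraries 0.0097 to 0.0250, against 0.757 to 0.989 among the others). Log2(TPM + 1) was tested with limma 3.58.1 (R 4.3.3, moderated with trend, 1 coefficient per group) over genes reaching 5 TPM in 2 or more libraries, adjusted by Benjamini-Hochberg per contrast, and the code was tested on simulated data. Intervals are 95% and describe the log2 difference less the median of all genes. The series text gives 22h where sample labels give 20h; the labels were used. All 10 members were named; for lists, the 2 to 4 called genes of largest change; for likeness, the 2 genes of highest correlation. Members and lists were chosen with earlier results of these data known. Deviations of same-letter, same-code libraries correlated above 0.1 in 28 of 62 pairs (median 0.0836), against 53 of 270 other pairs (median −0.016); since not every pair did, numbers were not taken to pair samples. Other pseudocounts, filters, scalings, covariates and left-out libraries were tried; leaving out code N160623 was chosen after seeing the data.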

Additional observations from a re-analysis of the deposited data

Results flagged for a closer look

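Tlr4 in AM at 0h had 1 library far from the others: AM 0h N160623 stood at 9.95 TPM against 18.0 to 19.5 TPM in the other 3, a gap of 0.841 of the group's range, above Dixon's critical value for 4 libraries. It is the 0h library of title code N160623, and 30.4% of its column sum was Rn45s. The group of 4 gave 10 such tests, 1 per member, and chance passes about 1 in 20.

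The response to LPS differed from that of AM by a test of the difference itself for Irak3 in IM (adjusted p = 0.000306), Cd14 in IM (adjusted p = 0.00259), Tlr2 in IM (adjusted p = 0.00382) and Cd14 in IMo (adjusted p = 0.00846), each from limma's moderated F test over 3 times. The first 3 held in every alternative run (adjusted p up to 0.0256), and the last was 0.0584 without IMo 2h B161219. In IM and IMo the title code changes with LPS, and the 2 cannot be told apart.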

How the results depend on the processing

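Of 62 pairs of member and comparison called, 26 were called under every alternative, and the relative difference of 1 call changed sign, that of Tlr4 between IM and AM at 2h (up to 0.25, where it did not pass the test). At 0h, 9 pairs were called between cell types (6 to 10 with 1 library left out) and 4 with the replicate block. After LPS 35 were called between cell types (31 to 39 with 1 library left out). In AM 0 were called against 0h (0 to 0 with 1 library left out) and 3 without code N160623. In IM 10 were called against 0h (7 to 10), 16 after quantile normalization and 6 with the replicate block. In IMo 5 were called (3 to 6), with 3 at a pseudocount of 0.25 TPM, 2 with no filter, 12 after quantile normalization, 11 after rescaling, 1 with the title code, 1 with the replicate block and 14 without code N160623. Between ip times 3 were called (1 to 4), with 1 with no filter, 8 after quantile normalization, 7 after rescaling, 8 with the title code, 7 with the replicate block and 5 without code N160623. Of the differences of responses 4 were called (4 to 5), with 11 after quantile normalization and 8 each after rescaling, with the title code and without code N160623. The replicate block ended 13 of the 62 calls, among them Irak3 in IM at 20h (adjusted p = 0.0530), Tlr2 in IM at 6h (0.0687), Irak3 between IMo and AM at 0h (0.275) and Ticam1 at 2h in IM and IMo (0.365 and 0.477). Also ended were 0h calls against AM of Tlr4 in IM and IMo (0.110 and 0.0869), Ly96 in IM (0.140) and Myd88 in IMo (0.0981). The rest were Lbp in IMo at 20h against 0h (0.490), Ticam1 in IMo at 6h (0.952) and Ticam2 at 2h in IM and IMo (0.377 and 0.578). The causes were not tested. TPM carries no depth, and values near or under 1 TPM, as for Lbp in AM, depend on the pseudocount.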

Other observations

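Of 8 tested other Toll-like receptors (10 listed), 4 were higher in IM than in AM at 0h and 4 in IMo than in AM, none lower. Of all 8937 genes, 1344 and 1448 were higher and 982 and 1201 lower. Tlr9, the endosomal receptor of CpG DNA, averaged 9.77 TPM in IM, 5.76 TPM in IMo and 0.0908 TPM in AM (limma, adjusted p = 1.28e-07 and 2.13e-06). Group means of Tlr9 and Tlr1 in AM were at most 0.742 and 1.30 TPM at any time. Both genes are among the 4, and they entered the test through the groups where they are higher. Tlr6, also among the 4, averaged 2.66 TPM in AM at 0h, under the filter of 5 TPM. Its 0h means were 5.285 TPM in IM and 5.40 TPM in IMo. Calls of these genes above AM are thus not independent of the filter. Tlr13, a receptor of bacterial ribosomal RNA, averaged 28.2, 58.8 and 8.47 TPM (adjusted p = 0.00531 and 3.57e-05). Tlr1, the partner of TLR2 for triacylated lipopeptides, rose in IM from a mean of 5.51 TPM at 0h to 37.0 TPM at 20h (relative log2 difference 2.64, SE 0.45, adjusted p = 0.000258) and in IMo from 5.00 to 25.2 TPM (2.45, SE 0.45, adjusted p = 0.00163). Tlr8 was lower at 20h than at 0h in IMo (4.07 against 18.8 TPM, −1.62, SE 0.44, adjusted p = 0.00329). None of the 8 was called in AM after LPS, where 0.134%, 1.3% and 0.112% of all genes were called at 2, 6 and 20h.

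Of 10 chaperones and accessory genes of Toll-like receptors, 4 fell and none rose in IM at 2h, near the share of all genes, of which 3642 of 8937 fell. Cd36, a scavenger receptor that assists TLR2, averaged 84.8 TPM in IM at 0h and 9.04, 16.5 and 8.58 TPM at 2, 6 and 20h (limma, adjusted p = 0.000284, 0.00474 and 0.00194). Scimp, a transmembrane adaptor that binds TLR4, rose in IMo at 2h (mean 61.5 against 13.4 TPM, 2.34, SE 0.64, adjusted p = 0.0259) and was lower at 20h (1.67 TPM, −2.13, SE 0.64, adjusted p = 0.00926). In IM at 0h, the endothelial, epithelial and fibroblast marker sums were also above those after LPS, and their part in the fall of Cd36 was not tested.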
